A study of Danio rerio with 4 samples.

Results

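The table was read for pnp4a, a purine nucleoside phosphorylase gene known from the silvery pigment cells of fish, together with 6 genes of purine synthesis that every dividing cell uses: ppat, gart, pfas, paics, atic and gmps. These 7 of the 20390 listed genes were found by their symbols, each in 1 row, and all 7 passed the filter on low values, a value of at least 10 in at least 2 libraries. pnp4a met this filter only through the Cre-injected libraries, so it could only be called higher. They were chosen with the difference between uninjected and Cre-injected embryos already known, above all the low and high values of pnp4a. Their own values in that contrast are therefore given as a description. Where their calls are printed, nothing is read from them.

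RNA came from whole zebrafish embryos at the 6-somite stage, 2 libraries from uninjected embryos and 2 from embryos that received Cre by injection as zygotes. All embryos carried the transgene bns298, in which the heat-inducible hsp70l promoter can drive npas4l and, through a GGGGGLSRS linker and a P2A peptide, mCherry only once Cre has cut out a STOP cassette between loxP sites. All were kept at 28 °C and given a heat shock at 37 °C for 1 h, with no starting time stated per sample. Npas4l is a transcription factor needed for the first blood and vessel cells. No group received Cre without the transgene, so effects of npas4l, of Cre and of the injection itself cannot be told apart, and neither can a difference in clutch or exact stage. Nor is it stated that the replicates are separate clutches, and each p-value may reflect technical spread alone. Library totals ran from 8933474 to 9861419 normalised reads. The npas4l row (CABZ01080135.1) held 370 and 279 normalised reads without Cre and 710 and 808 with it.

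Purines are built in a chain of reactions that ends in inosine monophosphate (IMP), from which AMP and GMP are made. Cells can also recover them by salvage, in which purine nucleoside phosphorylases split nucleosides such as guanosine into a base and a sugar phosphate. Iridophores, the reflective pigment cells of fish, stack crystals of guanine, and zebrafish pnp4a is widely used as their marker. Iridophores arise from the neural crest and differentiate well after the stage sampled here.

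pnp4a (ENSDARG00000057575; chromosome 11, 24251141 to 24299538, plus strand, GRCz11) had 1 and 1 normalised reads in uninjected embryos, against 23 and 74 after Cre injection. Both Cre-injected libraries lay far above both uninjected ones, which were at the edge of detection. With 2 reads against 97, the ratio was 48.5 (95% exact counting interval 13.1 to 406, which covers counting error only). The fitted log2 fold change of value + 1 was 4.41 ± 0.70 (SE), which corresponds to 21.2-fold. This fold is below the ratio because adding 1 understates the change of a gene this low, and because the fit averages logs. Even where it was high, pnp4a stayed a minor transcript, at 2.57 and 7.50 CPM (reads per 1000000 of the library's own total) in the Cre-injected libraries.

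The Cre-injected libraries did not give the same level of pnp4a. Replicate 2 held 3.22 times the value of replicate 1 (95% exact counting interval 1.99 to 5.38). A band of 4357 tested genes with a Cre-injected mean between 25 and 100 was chosen after the values were seen. In it 14 genes (0.321%), pnp4a itself included, had replicate 2 above replicate 1 by at least as much as pnp4a. Counted in either direction, 21 genes of the band had a gap of that size. Among these 14 were the endoderm factor gene sox32, with 16 and 93, the chaperone gene hsp70.1, with 26 and 132, and the EGF-family ligand gene hbegfa, with 19 and 74, also picked out after their values were seen. The npas4l row was at 710 and 808 in the same libraries, beside 370 and 279 without Cre. Reads of the native gene and of the transgene are not separated in that row. Without Cre-injected replicate 2 the log2 fold change of pnp4a was 3.58, and without replicate 1 it was 5.23. What sets the gap between the replicates was not tested.

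**Figure D1:**
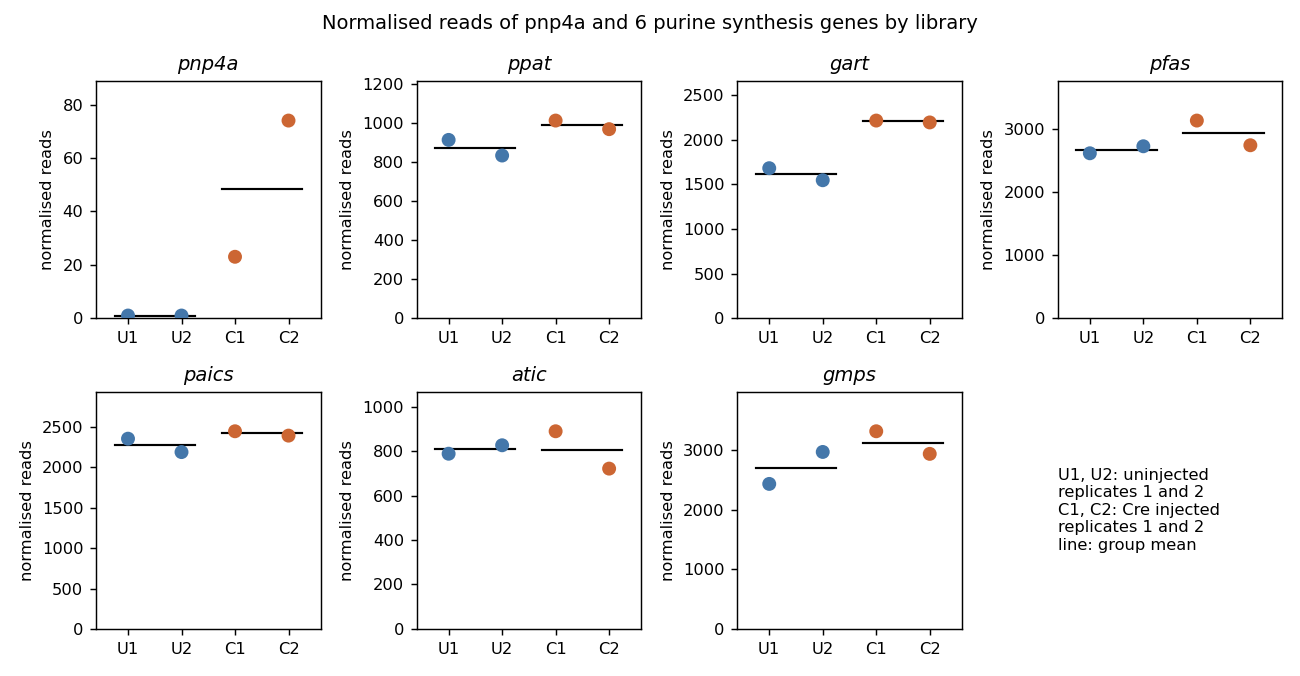
Normalised reads (vertical axis, from 0, with a scale of its own in each panel) of pnp4a and 6 purine synthesis genes in the 4 libraries; points are libraries and lines are group means. pnp4a goes from 1 and 1 to 23 and 74, gart is higher in both Cre-injected libraries, and the atic and gmps points of the 2 groups overlap.

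The 6 synthesis genes were all well measured, with log2 fold changes from -0.01 (atic) to 0.45 (gart). ppat encodes the amidotransferase of the first committed step (ENSDARG00000004517; chromosome 20, 25625872 to 25639508, plus strand). Its values were 913 and 833 in the uninjected samples and 1012 and 968 in the Cre-injected libraries, so the groups did not overlap. The log2 fold change was 0.18 ± 0.12 (SE).

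gart encodes a protein with several enzyme activities of the early chain, and its row differed most among the 6 (ENSDARG00000101089; chromosome 1, 960209 to 999556, minus strand). Uninjected embryos gave 1682 and 1547 normalised reads of it, and Cre-injected embryos 2216 and 2195. The Cre-injected replicates were almost level with each other, and the mean was 36.6% above the uninjected mean, a log2 fold change of 0.45 ± 0.11 (SE). The gene n6amt1, for a methyltransferase, lies within the bounds of gart on the other strand. It went the other way in level, from 122 and 118 to 76 and 74 (limma adjusted p = 0.0591). No source used here says whether reads were counted by strand, so reads of the shared 9345 bases cannot be told apart.

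pfas encodes the synthase of a later amidation step (ENSDARG00000003750; chromosome 20, 25445826 to 25473275, plus strand). Its values were 2612 and 2723 without and 3130 and 2739 with Cre. The lower Cre-injected value lay just above the higher uninjected one, and the log2 fold change was 0.13 ± 0.11 (SE). paics encodes a bifunctional carboxylase and ligase (ENSDARG00000033539; chromosome 20, 25618114 to 25631256, minus strand). Its values were 2357 and 2191 without and 2449 and 2395 with Cre, with a log2 fold change of 0.09 ± 0.11 (SE). The groups again lay apart only narrowly, by less than the uninjected replicates lay from each other.

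atic encodes the bifunctional enzyme that closes the ring to IMP (ENSDARG00000016706; chromosome 1, 5437390 to 5504130, plus strand). It held 788 and 826 normalised reads without and 889 and 721 with Cre. The uninjected values fell inside the range of the Cre-injected ones, and the log2 fold change was -0.01 ± 0.13 (SE). gmps encodes GMP synthase, which acts on the branch from IMP to GMP (ENSDARG00000079848; chromosome 18, 34181655 to 34216886, plus strand). Its values were 2432 and 2968 without and 3315 and 2936 with Cre, which overlap, and the log2 fold change was 0.22 ± 0.12 (SE).

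The 6 synthesis genes thus span log2 fold changes of -0.01 to 0.45, beside 4.41 for pnp4a. Summed, they came to 10784 and 11088 normalised reads in the uninjected and 13011 and 11954 in the Cre-injected libraries, 14.1% higher in the mean. Within that sum gart took 15.6% and 14% in the uninjected and 17% and 18.4% in the Cre-injected libraries. The ratio of gart to paics, a pair picked after its values were seen, was 0.714 and 0.706 without and 0.905 and 0.916 with Cre. Such ratios within a library do not depend on how libraries are scaled. For every 1000 reads of the 6 genes together there were 0.0927 and 0.0902 reads of pnp4a without Cre and 1.77 and 6.19 with it.

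At an adjusted p under 0.05, limma called 6.35% of the 16754 tested genes higher and 6.19% lower in Cre-injected embryos. By that threshold 2 of the 7 members, pnp4a and gart, were higher and none was lower. Since the members were chosen from this contrast, nothing is read from that count. gart lost its call without uninjected replicate 1 or 2, with log2 fold changes of 0.51 and 0.39. pnp4a lost its call without Cre-injected replicate 2, when gmps (0.30) and pfas (0.23) passed. The groups did not overlap, with Cre-injected values above, for 5 of the 7 members, where 28% of all tested genes did the same and 28.8% lay apart in the other direction. A filter of 50 in 2 libraries takes pnp4a out of the test.

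The genes most like pnp4a in level and pattern were found by the distance between their log2(value + 1) over the 4 libraries. The nearest was nkpd1, with 0 and 2 normalised reads without and 42 and 68 with Cre, at a distance of 1.44. Next came sox32, with 3 and 0 without Cre, and hbegfa, with 3 and 4, at distances of 1.53 and 1.68. The laminin gene lama2, at 2 and 3 without and 20 and 20 with Cre, and the monocarboxylate transporter gene slc16a9a, at 5 and 4 without and 41 and 68 with Cre, lay at 2.18 and 2.22. Among these 5, only sox32 and hbegfa had a gap between the Cre-injected replicates as wide as that of pnp4a. The distance rests on these same 4 libraries, so it favours genes with a like rise and a like gap. It says nothing of shared function.

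**Figure D2:**
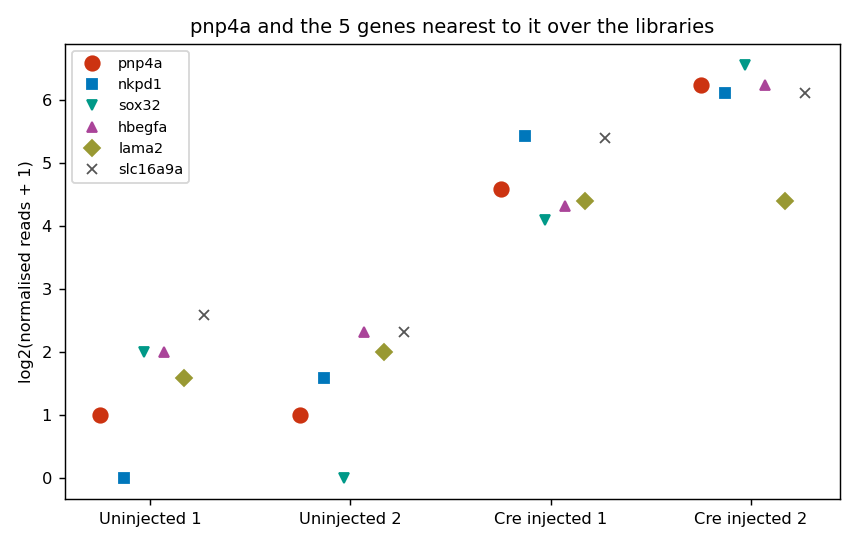
Levels as log2(normalised reads + 1) in the 4 libraries (horizontal axis) for pnp4a (red circles) and the 5 genes nearest to it; symbols are single libraries, set side by side. All 6 genes are higher in both Cre-injected libraries, and for lama2 those libraries are level at 20 and 20.

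None of the 6 genes listed nearest to pnp4a on chromosome 11 passed the test by limma, and 1, sox12, had an unadjusted p under 0.05. The 3 nearest listed genes on each side were sox12, trib3 and maf1 to the left and rem1, rbm39a and nfs1 to the right. The closest, rem1, for a small GTPase, starts 14.4 kb beyond pnp4a and had 76 and 71 normalised reads without and 79 and 120 with Cre (limma log2 fold change 0.40 ± 0.25 (SE), adjusted p = 0.328). sox12, a Sox transcription factor gene 59.2 kb away on the other strand, was low and uneven, at 0 and 14 without and 18 and 28 with Cre (limma log2 fold change 2.60 ± 1.03 (SE), adjusted p = 0.127, unadjusted p = 0.0288). The remaining 4 neighbours had log2 fold changes between 0.04 and 0.23.

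Of the other members, 3 lie together on chromosome 20, which the rule did not use. pfas is 144.8 kb from paics, and paics and ppat overlap by 5385 bases on opposite strands. Their reads in the shared stretch cannot be told apart without the strand setting. Between the start of pfas and the end of ppat the table lists 12 genes besides these 3, most of them cytochrome P450 genes of the cyp2 family, detoxifying oxidases. Of 9 of these that were tested, 0 were higher and 0 lower by limma (0 and 1 at an unadjusted p under 0.05), and their log2 fold changes ran from -1.10 to 0.36. Around all 7 members, 31 other neighbours were tested by limma, of which 1 was higher and 1 lower. Of all tested genes, 6.35% were higher and 6.19% lower. These neighbours were fn1b (0.42 ± 0.12 (SE), limma adjusted p = 0.0425) and tuba8l2 (-0.57 ± 0.13 (SE), adjusted p = 0.0157), both beside atic.

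**Figure D3:**
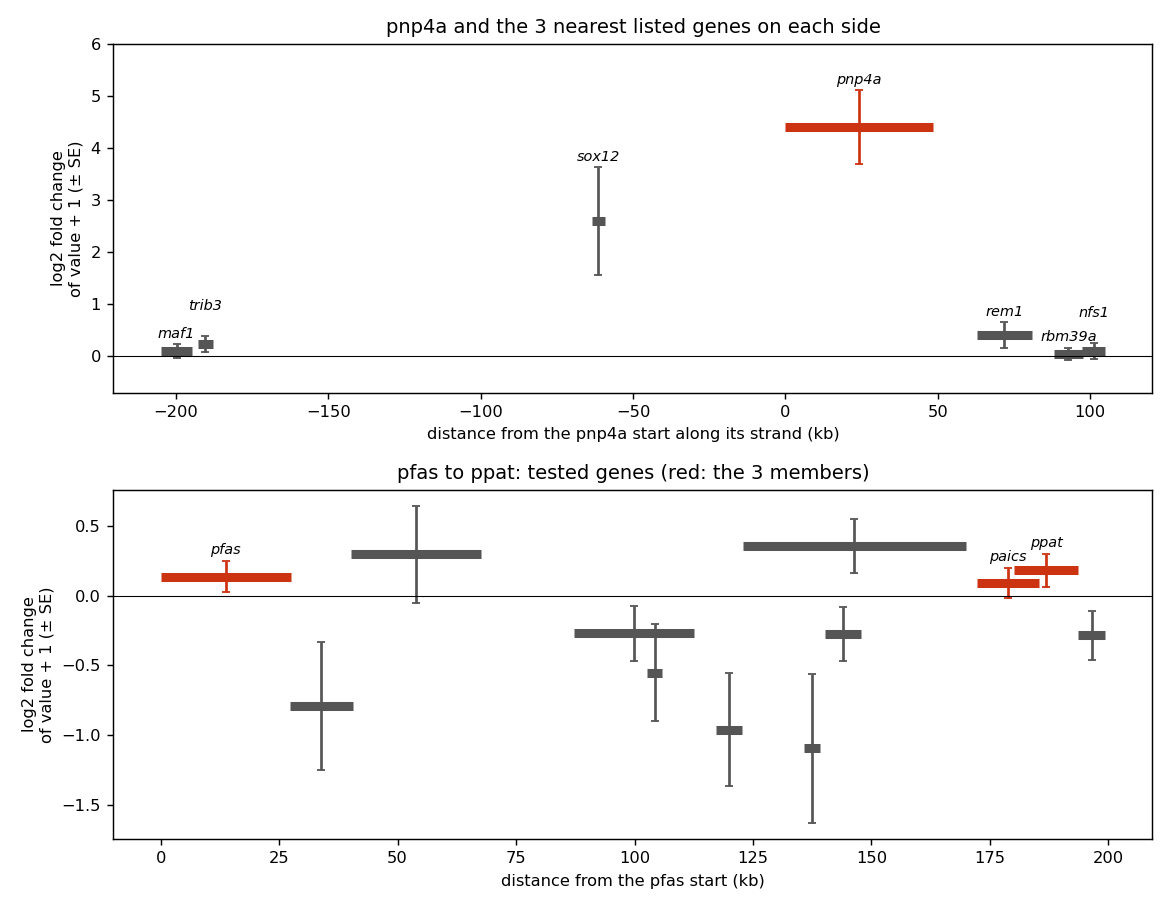
Log2 fold change of value + 1 (vertical axis, ± SE) of tested genes by distance in kb from the start of pnp4a (top) and of pfas (bottom); horizontal bars span each gene and members are red. pnp4a, at 4.41, stands above its neighbours, of which sox12 at 2.60 has a wide error, while pfas, paics and ppat lie between 0.09 and 0.18.

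The remaining synthesis enzymes gave 0 calls in either direction among 6 tested by limma, with 1 higher at an unadjusted p under 0.05, adssl1. adsl, for the lyase that acts both in the chain and on the branch to AMP, had 615 and 617 normalised reads without and 632 and 709 with Cre (log2 fold change 0.12 ± 0.13 (SE), adjusted p = 0.572). impdh1b encodes an IMP dehydrogenase of the GMP branch, and held 1813 and 1974 without and 1968 and 1815 with Cre (log2 fold change 0.00 ± 0.11 (SE), adjusted p = 0.997). For the adenylosuccinate synthase gene adssl1 the values were 405 and 496 without and 527 and 636 with Cre (adjusted p = 0.132). The median log2 fold change over these 6 was 0.00, as over all genes tested.

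Salvage and breakdown genes outside the members gave 2 higher and 1 lower of 17 tested by limma (3 and 1 at an unadjusted p under 0.05). Of all tested genes, 6.35% were higher and 6.19% lower by adjusted p, with no share computed at an unadjusted p. The median log2 fold change over these 17 was 0.20, beside 0 over all genes tested. The other purine nucleoside phosphorylase genes did not share the pattern of pnp4a in their values. pnp5a held 215 and 229 normalised reads without and 203 and 184 with Cre, with a log2 fold change of -0.20 ± 0.16 (SE; limma adjusted p = 0.465). pnp5b was low, at 13 and 6 without and 9 and 13 with Cre (adjusted p = 0.82), and pnp6, at 2 and 5 without and 0 and 1 with Cre, was too low to test. pnp4b was not analysed here. ampd2b, for an AMP deaminase that returns AMP to IMP, rose from 522 and 440 to 927 and 870 (log2 fold change 0.90 ± 0.13 (SE), adjusted p = 0.00115). nt5c2b, for a cytosolic nucleotidase acting on IMP and GMP, rose from 1462 and 1451 to 1854 and 2307 (0.51 ± 0.12, SE; adjusted p = 0.0203). uox, for urate oxidase, fell from 1092 and 1001 to 784 and 684 (-0.51 ± 0.12, SE; adjusted p = 0.0187). The salvage genes hprt1 and aprt, which reattach bases to a ribose phosphate, had adjusted p = 0.364 and 0.975. The adjusted p of ampd2b was 0.0577 without uninjected replicate 2. Those of nt5c2b and uox were 0.231 and 0.292 without uninjected replicate 1, and 0.236 and 0.157 without replicate 2.

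**Figure D4:**
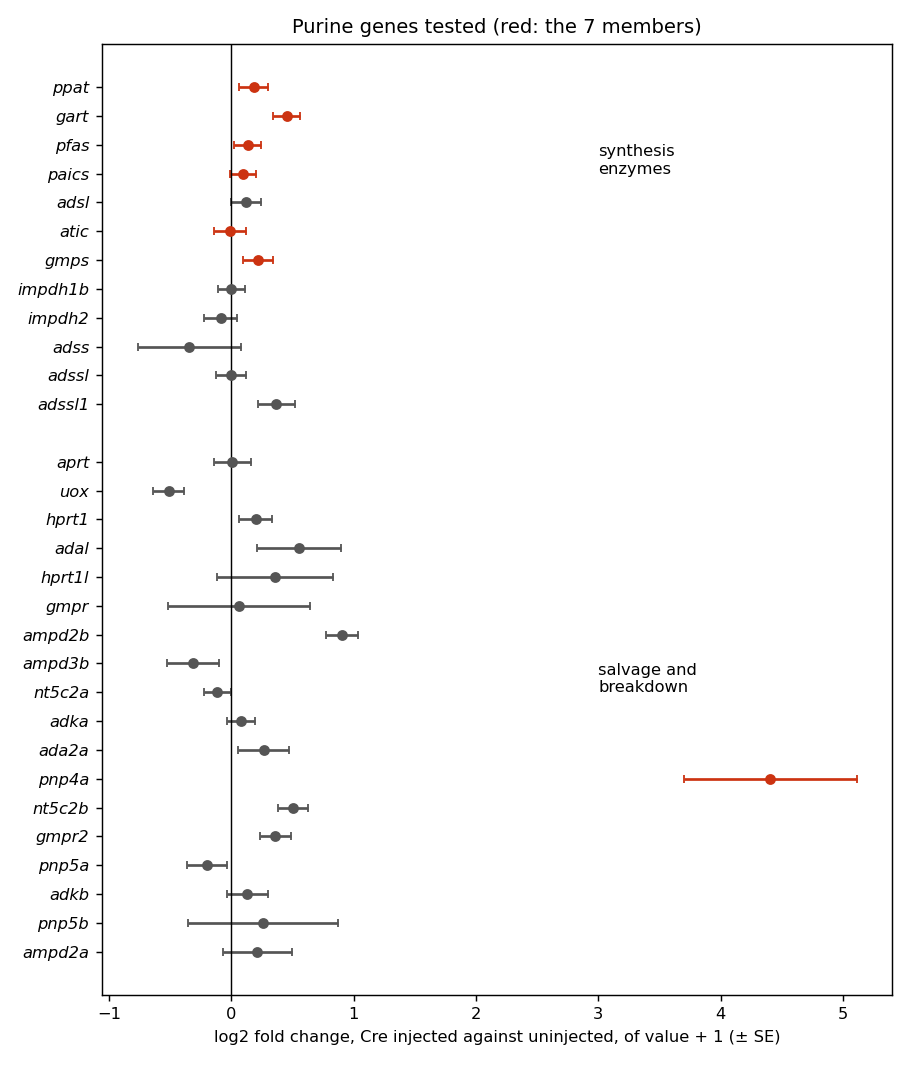
Log2 fold change of value + 1 (horizontal axis, ± SE) of the tested genes for purine synthesis (upper block, chain and branches) and for salvage and breakdown (lower block), with the 7 members in red. pnp4a lies at 4.41, and the other genes lie between -0.51 and 0.90.

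Among genes that supply ribose phosphate and folate-bound carbon to the chain, 1 rose and 1 fell of 19 tested, with a median log2 fold change of -0.05. Formyl-tetrahydrofolate is the carbon donor for the Gart and Atic proteins. aldh1l1, for the cytosolic enzyme that uses it up, fell from 317 and 234 to 123 and 131 (log2 fold change -1.10 ± 0.19 (SE), limma adjusted p = 0.00328). Its mitochondrial counterpart aldh1l2 rose from 365 and 325 to 542 and 452 (0.52 ± 0.15, SE; adjusted p = 0.0378). Without uninjected replicate 1 these became adjusted p = 0.0923 and 0.175, and that of aldh1l2 was 0.333 without replicate 2, 0.0745 with library total scaling, 0.0542 with upper quartile scaling and 0.0548 with shrinkage that is not robust. Across the 3 purine lists outside the members, 3 genes were higher and 2 lower of 42 tested, or 11.9%, beside 12.5% of all tested genes in either direction.

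Some genes of the neighbouring nucleotide pathways passed the test, beside 6.35% of all tested genes higher and 6.19% lower by adjusted p. No such share was computed at an unadjusted p. In pyrimidine synthesis and breakdown, 0 were higher and 2 lower of 12 tested by limma (2 and 3 at an unadjusted p under 0.05). The thymidylate synthase gene tyms fell (-0.49 ± 0.14 (SE), limma adjusted p = 0.0449). So did the pyrimidine breakdown gene dpydb (-1.70 ± 0.40 (SE), adjusted p = 0.0168). Among nucleotide kinases and ribonucleotide reductase, 2 were higher and 3 lower of 21 tested by limma (2 and 6 at an unadjusted p under 0.05). Their median log2 fold change was -0.22. The adenylate kinase family gene ak3 rose (0.72 ± 0.11, SE; adjusted p = 0.00183). The reductase gene rrm1 fell (-0.37), as did nme2b.1 (-0.84), a nucleoside diphosphate kinase gene whose close relative nme2b.2 may share its reads. The symbol rrm2 stands on 2 rows, of which the one on chromosome 20 fell (-0.59) and the one on chromosome 19 rose (0.96). Whether they share reads was not tested. Of the Myc, Atf4 and Tfe regulator genes, which include known activators of purine synthesis in mammals, limma called 0 of 13, with 1 higher and 1 lower at an unadjusted p under 0.05. tfe3a passed as higher with no filter on low values (0.59, adjusted p = 0.0491). Leaving out 1 library moved the counts to between 0 and 3 lower (pyrimidine), 0 and 3 higher with 0 and 5 lower (kinases and reductase), and 0 and 2 in either direction (regulators). tyms and rrm1 did not pass with libraries scaled to their totals (adjusted p = 0.0569 and 0.0766) or with shrinkage that was not robust (0.0552 and 0.065).

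Among the iridophore markers the main fit, on value + 1 with all 4 libraries and the filter on low values, called only pnp4a. It was chosen from this contrast, so nothing is read from its call. Of the 21 fixed marker symbols 10 had rows, and outside the members 7 were tested, with 0 higher and 0 lower by limma (2 and 1 at an unadjusted p under 0.05). ltk, the receptor kinase gene that iridophores need, was at 8 and 1 normalised reads without and 2 and 0 with Cre. tfec, a transcription factor gene of the lineage, was at 20 and 32 without and 7 and 8 with Cre (log2 fold change -1.63, adjusted p = 0.0535), and passed as lower with no filter (0.0415), with a pseudocount of 5 (0.0441) and without Cre-injected replicate 1 (0.0452) or 2 (0.035). The melanosome protein gene gpnmb was at 6 and 5 without and 1 and 7 with Cre. alx4a was level, at 24 and 21 without and 25 and 20 with Cre, while the transporter gene slc2a15b went from 1 and 8 to 20 and 15 (adjusted p = 0.0985). Without pnp4a and the broadly expressed impdh1b and tjp1a, the 7 other markers summed to 176 and 189 normalised reads without and 192 and 204 with Cre. One of them, tspan36, gave 98 and 84 of these without and 108 and 141 with Cre, and the 6 others, set apart after these values were seen, summed to 78 and 105 without and 84 and 63 with Cre. In whole embryos, a change in the number of cells of a type and a change in RNA per cell cannot be told apart. Leaving out 1 library gave 0 to 1 lower and 1 to 2 higher in this list with pnp4a included; the junction gene tjp1a passed as higher without Cre-injected replicate 1 (0.28, adjusted p = 0.0285) or 2 (0.37, adjusted p = 0.00308).

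Markers of melanophores and xanthophores, the black and yellow pigment cells, gave 1 higher and 1 lower of 8 tested, with 10 more too low to test. aox5, an aldehyde oxidase gene used as a xanthophore marker, rose from 12 and 14 to 43 and 40 (log2 fold change 1.60 ± 0.38 (SE), limma adjusted p = 0.018). pax7a, a factor gene of the xanthophore lineage also expressed in the neural tube and somites, fell from 37 and 34 to 8 and 10 (-1.87 ± 0.43, SE; adjusted p = 0.0151). Summed, this list stood at 846 and 836 normalised reads without and 802 and 683 with Cre. The lipoprotein receptor gene scarb1 gave 489 and 481 of these without and 429 and 321 with Cre, and the 17 others, set apart after these values were seen, summed to 357 and 355 without and 373 and 362 with Cre. Of 15 neural crest genes tested by limma, 0 were higher and 4 lower (1 and 7 at an unadjusted p under 0.05). Of all tested genes, 6.35% were higher and 6.19% lower by adjusted p. The share at an unadjusted p was not computed, so nothing is read from the 1 and 7. The 4 were sox10 (-0.50 ± 0.14, SE), tfap2a (-0.46 ± 0.12, SE), snai1b (-0.42 ± 0.13, SE) and ets1 (-1.45 ± 0.37, SE). Their limma adjusted p-values were 0.0389, 0.0232, 0.046 and 0.025. The 4 became 2 when libraries were scaled to their totals, where sox10 (0.0569) and snai1b (0.0565) did not pass, and 2 with shrinkage that was not robust, where snai1b (0.0662) and ets1 (0.0503) did not. foxd3, also an early crest gene, was at 242 and 232 without and 238 and 288 with Cre (adjusted p = 0.604). The crest list summed to 9316 and 9670 normalised reads without and 7924 and 8148 with Cre. Its part in the pnp4a result was not tested. All 18 genes called in the lists outside the members lost their call without at least 1 of the uninjected libraries, 16 without replicate 1 and 17 without replicate 2, and 0 without a Cre-injected one. The crest list had fewer lower genes without an uninjected library than with all libraries, and more without a Cre-injected one. The melanophore and xanthophore list also had fewer calls without an uninjected library.

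**Figure D5:**
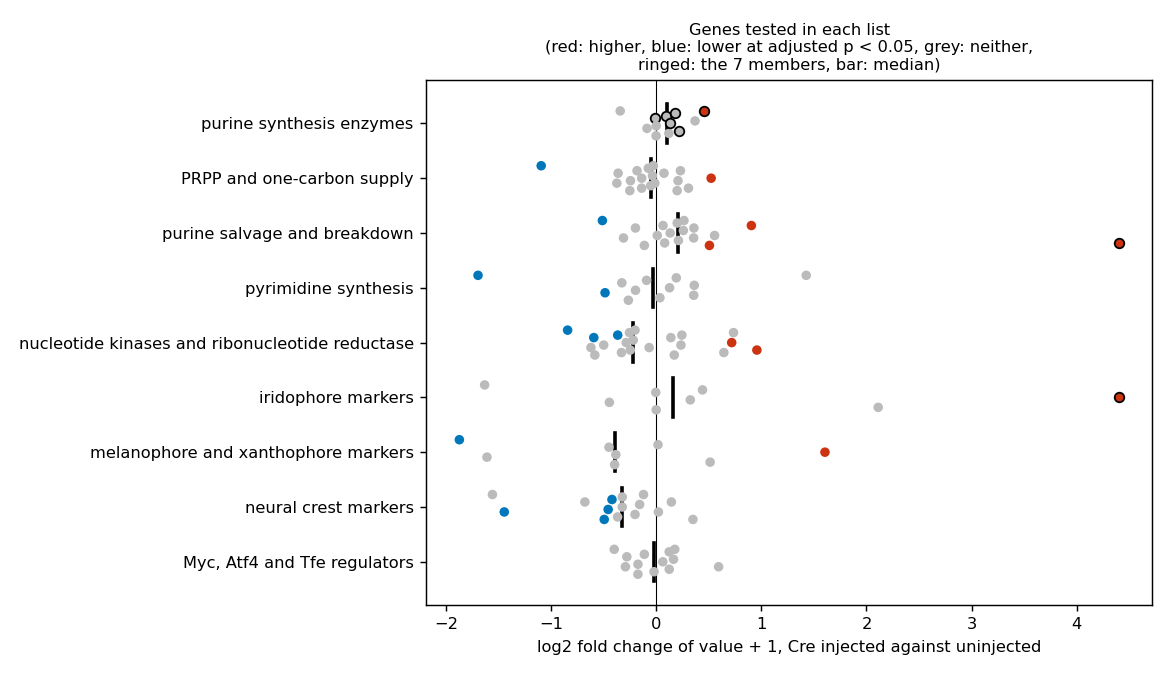
Log2 fold change of value + 1 (horizontal axis) of each tested gene in the 9 lists (rows); red and blue points passed an adjusted p under 0.05 by limma, grey ones did not, black rings mark the 7 members and bars are list medians. The list medians lie between -0.39 and 0.20, while pnp4a lies at 4.41 in both lists that hold it.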

How the data were processed

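The deposited table gives 1 score per gene and library, apparently read counts of genes that the authors scaled by library-wise size factors and then rounded. The reading comes from the values alone: no gene holds 30 in Cre-injected replicate 1 or 33 in replicate 2, and 246 and 279 genes hold 24 and 18 in uninjected replicates 1 and 2, beside medians of 111 and 144 genes at the nearest 8 values. Per the submitters' processing notes, which assign no roles, the tools were STAR 2.6.0c, featureCounts 1.6.0, Trimmomatic 0.36, DESeq2 1.14.1 and FastQC 0.11.8, and the build was GRCz11 (danRer11). Each listed gene reaches 5 in at least 1 library.

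As the values are normalised, limma 3.58.1 (R 4.3.3) was fitted to log2(value + 1) of all genes with at least 10 in at least 2 libraries, using robust shrinkage and a mean-variance trend. Calls needed a Benjamini-Hochberg adjusted p under 0.05, and every adjusted p given comes from this model or a named alternative. The shares of all tested genes called higher or lower refer to such calls. No share was computed for an unadjusted p under 0.05, so counts at that level have no share to be read against. On simulated data with 16318 genes, 64 of 100 genes changed 2-fold, 95 of 100 changed 4-fold and 3 of 16118 unchanged ones were called. The changed genes were not drawn from those with the lowest values. Replicates were simulated as independent, which those of the samples may not be. Counting intervals treat the values as counts. List genes were matched by symbol, then by identifier (ets1).

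The members and the 9 lists were chosen with earlier results of these data known, and 1 list gene is not reported here. Named genes were the members, adsl, impdh1b, the phosphorylase genes, up to 6 called genes per list and the 5 nearest to pnp4a. Other names were added after their values were seen. Levels are not compared between genes per length, and no sequences are shown. Figures were drawn with matplotlib 3.10.9.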

Additional observations from a re-analysis of the deposited data

How the results depend on the processing

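Leaving out 1 library moved the counts of called genes to 228 to 2064 higher and 210 to 1871 lower, and those of purine genes outside the members to 0 to 4 higher and 0 to 3 lower. An adjusted p under 0.01 gave 412 higher and 449 lower genes, and 1 higher and 1 lower purine gene, and one under 0.1 gave 1614 lower genes. A fit with 1 library left out takes the spread of the lone library's group from the other group. The log2 fold change of pnp4a was 2.97 with a pseudocount of 5, which weighs low values down, and 3.58 to 5.23 with 1 library left out. Those of the 6 synthesis genes moved by less than 1 SD between replicates under the other scalings, filters, pseudocounts and shrinkage. Over libraries left out they spanned 0.12 to 0.25 (ppat), 0.39 to 0.51 (gart), 0.04 to 0.23 (pfas), 0.04 to 0.14 (paics), -0.16 to 0.14 (atic) and 0.07 to 0.36 (gmps). Replicate numbers do not pair the samples by any label, and same-numbered deviations had r = -0.03 across genes. With the replicate number as a block, 1132 genes were higher and 1121 lower, 3 and 2 of the purine genes, and pnp4a stayed at 4.41; tyms, rrm1 and snai1b lost their calls, while tfec (lower, limma adjusted p = 0.0499) and tfe3a (higher, 0.0339) gained one. Values as low as 1 read limit how far the change of pnp4a can be measured at this depth.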
